A study of Arabidopsis thaliana with 9 samples.

Results

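Of the 2507 genes on the authors' 4 lists, 39 carried a name that begins with CYP or UGT followed by a digit. They are the cytochrome P450s and the UDP-glycosyltransferases of these lists, chosen by the gene column of the deposited tables, and they made 44 entries. They comprised 27 cytochrome P450 genes, 11 UDP-glycosyltransferase genes and 1 gene that goes against the label. That gene, CYP18-3 (AT4G38740), is named ROC1 and cyclophilin in RefSeq, and cyclophilins are peptidyl-prolyl isomerases that share only the letters CYP with the P450s. RNA came from whole Arabidopsis thaliana seedlings (leaf, stem and root) of the Columbia background at 14 days on MS medium, in 3 groups of 3 libraries. The groups were wild type (col), 1 line with an RNA interference construct against the nuclear sirtuin gene SRT1 (line RNAi-1) and 1 line overexpressing SRT1 (line OX-SRT1-1), so each genotype rests on a single line. The columns of the deposited tables label these lines ox5 and r5, and the sources used here do not relate those labels to the line names. The promoter that drives either construct is not given there. All 3 groups share the ecotype, age and growth conditions.

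Cytochrome P450s are haem-containing enzymes that insert oxygen into small lipophilic molecules, using electrons from a reductase partner in the endoplasmic reticulum. UDP-glycosyltransferases move a sugar from a UDP-sugar to a small acceptor, which often makes it soluble or inactive. In plants both families are large, act in sequence in many pathways (lignin precursors, sterols, glucosinolates, hormones) and take part in the detoxification of foreign compounds. Their names carry a family number, a subfamily letter and a gene number, so that CYP81F2 and CYP81F3 belong to 1 subfamily.

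The authors' deposited tables give for each gene a single FPKM value per group, a level corrected for transcript length and for the number of mapped fragments, and none for the separate libraries. No SD, interval or new test between groups could therefore be computed, every call is the authors', depth is unknown, and the labels do not say whether the 3 libraries per group are from different plants. Only entries at least 2.00-fold apart with a q-value of at most 0.0496 are listed, so a gene missing from a list is not shown to be unaltered. The RNAi tables carry labels that conflict. In the list titled as higher in RNAi the higher column is labelled RNAi, and in the list titled as lower in RNAi the higher column is again labelled RNAi. Of the 584 genes in both comparisons, 569 had regular entries, and for these the second column of the RNAi tables stood in a nearly constant ratio to the second, wild type column of the OX tables (median log2 ratio 0.08, median absolute deviation 0.0081). The other 15 genes, which include SRT1 and 0 members, have an entry whose locus is written with spaces or whose deposited log2 ratio does not follow from its values. Of their 16 pairs of entries, 3 lay within 0.1 of that median. All 569 regular genes lay within 0.1 of that median, beside 80 of the 569 for the first columns around their own median. For these genes the second column thus matches wild type by value, although it is labelled RNAi in the list titled as higher in RNAi. It is therefore called the shared column, and directions in the RNAi tables are those of the first column relative to it. Where the lines are compared below, the first column is taken as the RNAi line, against its wild type label in that list. SRT1 itself was 6.05 FPKM in OX against 1.75 in the shared column, and 2.37 against 0.419 FPKM in the RNAi tables, which is higher and not lower in the first column. The SRT1 row of the RNAi tables is itself irregular. Its shared-column value differs 4.18-fold from that in the OX tables, where the median gene differed 1.06-fold, and its deposited log2 ratio has a size of 2.37 where its values give 2.50. Every RNAi direction below has this limit.

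In OX, 22 of the 26 listed members were lower than in the shared column and 4 were higher, or 84.6% lower, whereas 42.3% of all 1966 listed OX entries were lower. By family, 14 of 18 cytochrome P450s and 8 of 8 UDP-glycosyltransferases were lower. In the RNAi tables, 14 of 18 listed members were lower than the shared column and 4 were higher, or 77.8% lower, against 66.5% of all 1126 listed entries. Without the cyclophilin this was 13 of 17, made up of 10 of 13 P450s and 3 of 4 UDP-glycosyltransferases. The RNAi share lay near that of all listed entries, and the OX share lay above it. The deposited loci of the OX members were 1491 to 5033 bp long, and of listed nuclear genes with a symbol and a span in that range 35.1% were lower in OX. The upper end of that range is the locus of CYP712A1, whose RefSeq gene spans 1775 bp, and the lower members alone reached 3251 bp. The share within that narrower range was not computed. The share lower in OX was 39.6% for all listed nuclear genes and 43.1% for those with a symbol. In the RNAi tables these shares were 64.1% for nuclear genes, 64.6% for those with a symbol and 70.8% for those whose span also lay in the range of the members listed there. No test was made of these shares, since the members were chosen from the lists themselves. In whole seedlings, fewer cells of a type and less RNA per cell cannot be told apart.

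**Figure D1:**
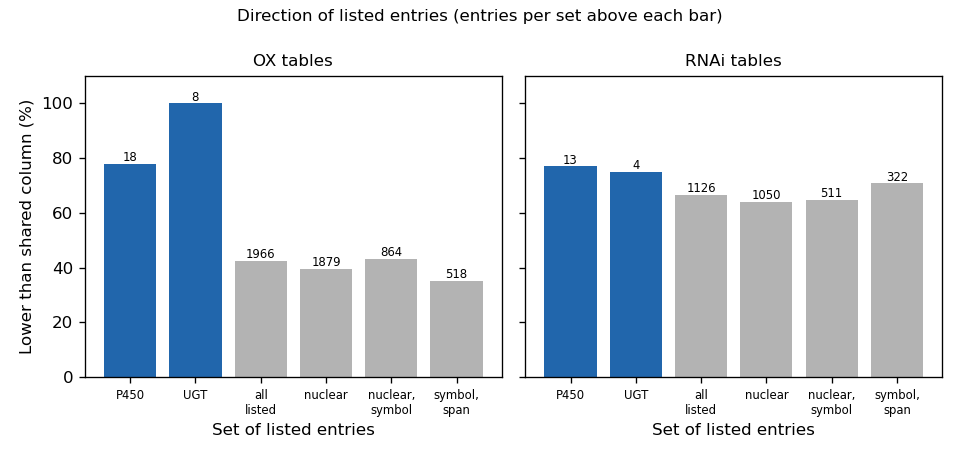
Share of listed entries lower than the shared column (bars, percent, axis from 0), for the cytochrome P450s and UDP-glycosyltransferases (blue) and for 4 reference sets (grey: all listed entries, nuclear genes, nuclear genes with a symbol, and those whose span lies in the members' range), with the number of entries above each bar and the cyclophilin left out of the blue bars. For OX, 77.8% of P450s and 100% of UDP-glycosyltransferases were lower against 42.3% of all entries, while for RNAi the blue bars (76.9% and 75.0%) stood nearer to the 66.5% of all entries.

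The sizes of the differences were ordinary for these lists. The lower members had a median fold of 2.29 in OX, beside 2.49 for the 745 nuclear genes lower in OX. In the RNAi tables the median was 2.63, beside 2.42 for 673 nuclear genes. RefSeq annotates 225 cytochrome P450 and 133 UDP-glycosyltransferase genes by symbol or product, of which 12.0% and 8.27% were members (9.77% of the UDP-glycosyltransferases with 2 further genes listed without such a name), beside 8.31% of 27444 nuclear protein-coding genes on any list. Most members had low levels. In the higher of the 2 columns 11 of the 39 genes reached 5 FPKM and 11 stayed under 1 FPKM.

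Both comparisons listed 5 members, which is 19.2% of the 26 in OX and 27.8% of the 18 in RNAi, beside 29.7% and 51.9% for all listed genes. They were CYP71A12, CYP81F2, CYP82C4, CYP706A2 and UGT74E1. All 5 were lower than the shared column in both sets of tables. By the list titles they were lower in OX and higher in RNAi, but the shared column is the one whose values match wild type. The 2 comparisons share the wild type libraries, so this common direction is given as values only. The shared columns of these 5 genes had log2 ratios of 0.07 to 0.09 between the tables, close to the median of all genes. The upstream sequences of 4 of them are shown because these are the members listed in both comparisons. That of CYP71A12 is not shown, because its RefSeq gene starts inside the deposited locus and its window would hold part of the deposited transcript. Each line gives the 250 bases before the gene start in RefSeq TAIR10.1, 5′ to 3′ on the gene's strand, with matches to any of 5 searched motifs in capitals.
CYP81F2 (chr5:23187590-23187839, plus strand): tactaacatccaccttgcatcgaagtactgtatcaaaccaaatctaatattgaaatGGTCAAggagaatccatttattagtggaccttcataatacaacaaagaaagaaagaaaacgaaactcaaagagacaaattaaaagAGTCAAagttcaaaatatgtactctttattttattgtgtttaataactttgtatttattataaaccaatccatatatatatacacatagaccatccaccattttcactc
CYP82C4 (chr4:15451738-15451987, plus strand): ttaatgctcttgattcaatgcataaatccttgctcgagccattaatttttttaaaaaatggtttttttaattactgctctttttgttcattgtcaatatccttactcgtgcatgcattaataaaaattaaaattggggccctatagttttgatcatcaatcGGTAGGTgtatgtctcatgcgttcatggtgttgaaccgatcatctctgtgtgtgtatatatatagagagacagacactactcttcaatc
CYP706A2 (chr4:11934719-11934968, plus strand): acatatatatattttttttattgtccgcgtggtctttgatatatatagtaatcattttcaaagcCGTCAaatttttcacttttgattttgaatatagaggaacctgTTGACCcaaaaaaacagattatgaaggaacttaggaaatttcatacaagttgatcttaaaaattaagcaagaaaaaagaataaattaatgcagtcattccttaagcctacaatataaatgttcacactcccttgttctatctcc
UGT74E1 (chr1:1702750-1702999, minus strand): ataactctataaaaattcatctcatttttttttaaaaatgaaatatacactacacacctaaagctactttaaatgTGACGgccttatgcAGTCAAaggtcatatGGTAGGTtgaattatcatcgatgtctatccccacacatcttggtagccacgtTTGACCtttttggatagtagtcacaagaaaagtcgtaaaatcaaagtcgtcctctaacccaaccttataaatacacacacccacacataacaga
The capitals are W-box letters (TTGACC or TTGACT, the core bound by WRKY factors) in CYP81F2 at -194 and -109, in CYP706A2 at -144 and in UGT74E1 at -161 and -94, counted from the base before the gene start. The as-1 letters (TGACG, bound by TGA factors) stood at -186 in CYP706A2 and at -175 in UGT74E1. AC element letters (ACCTACC or ACCAACC, bound by MYB factors) stood at -89 in CYP82C4 and at -146 in UGT74E1. The 4 windows shown had no motif in common. That of CYP71A12, left out for the reason above, held none of the searched letters.

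CYP71A12 (AT2G30750, chromosome 2, 13099336 to 13101413 in TAIR10), which converts indole-3-acetaldoxime on the route to camalexin-type defence compounds, was 0.743 FPKM in OX against 1.62 in the shared column, 2.18-fold lower. In the RNAi tables it was 0.221 FPKM in the first column against 1.54, which is 6.96-fold lower and the largest fold of any member there. With the first column taken as the RNAi line, the 2 lines stood apart for this gene, the OX value being the higher of the 2. The first column is labelled wild type there, the tables were scaled separately and no test was possible. CYP82C4 (AT4G31940, chromosome 4, 15451988 to 15454160), which hydroxylates the iron-mobilising coumarin fraxetin to sideretin, showed the same order. It was 0.822 against 1.95 FPKM in OX, 2.38-fold lower, and 0.475 against 1.85 FPKM in the RNAi tables, 3.89-fold lower.

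CYP81F2 (AT5G57220, chromosome 5, 23187840 to 23189857), which hydroxylates an indole glucosinolate at the 4 position of its ring, was the most highly expressed of the 5. It was 2.11 FPKM in OX against 6.36, 3.02-fold lower, and 2.36 against 6.07 FPKM in the RNAi tables, 2.57-fold lower. The first-column values of the OX and RNAi tables lay close together for this gene. CYP706A2 (AT4G22710, chromosome 4, 11934969 to 11936755) was 0.121 against 0.599 FPKM in OX, 4.96-fold lower and the largest fold of any member in OX. In the RNAi tables it was 0.156 against 0.562 FPKM, 3.61-fold lower. Of the 50-base stretches of its coding sequence 71.2% occur in another, mostly that of CYP706A1, so its low values are uncertain. UGT74E1 (AT1G05675, chromosome 1, 1701116 to 1702749) stands beside UGT74E2, which encodes a glucosyltransferase of the auxin precursor indole-3-butyric acid. It was 0.218 against 1.03 FPKM in OX, 4.74-fold lower, and 0.156 against 0.977 FPKM in the RNAi tables, 6.25-fold lower. Both genes were under 0.3 FPKM in the first column of either set of tables. In the authors' deposited table the q-value of CYP706A2 was 0.00067 in OX and 0.0046 in RNAi, above the smallest q-values of 0.00015 and 0.0002 in those tables.

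**Figure D2:**
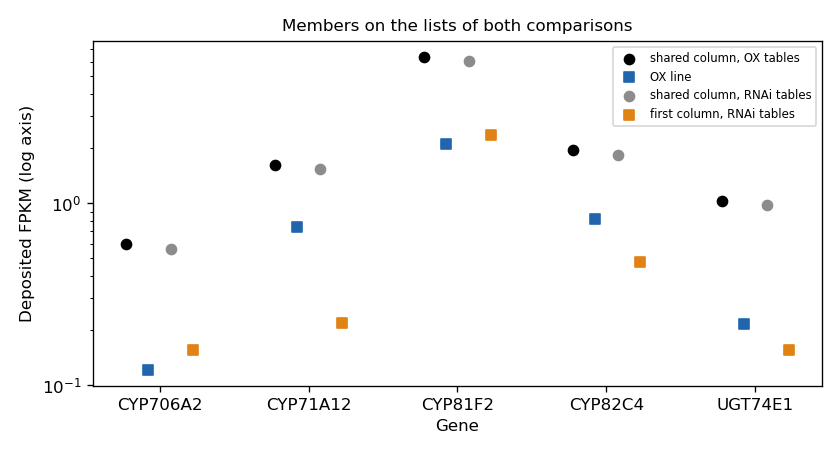
Deposited FPKM (log axis) of the 5 genes listed in both comparisons, with 1 point for each of the 4 columns (circles for the shared column in the OX and RNAi tables, squares for the OX line and for the first column of the RNAi tables). For every gene both squares lie below both circles, and the squares are farthest apart for CYP71A12, at 0.743 FPKM in OX and 0.221 FPKM in the RNAi tables.

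Of the 4 members with the highest levels in OX, 3 belonged to the phenylpropanoid route, which makes lignin monomers and related phenolics. CYP73A5 (AT2G30490), the cinnamate 4-hydroxylase of the second step, was 51.6 FPKM in OX against 105 in the shared column, 2.04-fold lower. CYP98A3 (AT2G40890), the hydroxylase that adds the 3′ hydroxyl group to p-coumaroyl esters, was 24.4 against 49.7 FPKM, also 2.04-fold lower. UGT72E1 (AT3G50740), which glucosylates lignin precursor aldehydes, was 41.6 against 102 FPKM, 2.45-fold lower. The P450s lay just beyond the 2-fold limit of the lists, and all 3 genes had the smallest q-value in the authors' deposited table, 0.00015. CYP84A4 (AT5G04330), a P450 of the synthesis of the phenolic pyrones called arabidopyrones, was 0.81 against 2.01 FPKM, 2.48-fold lower. The upstream window of CYP98A3 held AC element letters at -22 and no other searched letters, and it is shown as that of a phenylpropanoid gene.
CYP98A3 (chr2:17060653-17060902, minus strand): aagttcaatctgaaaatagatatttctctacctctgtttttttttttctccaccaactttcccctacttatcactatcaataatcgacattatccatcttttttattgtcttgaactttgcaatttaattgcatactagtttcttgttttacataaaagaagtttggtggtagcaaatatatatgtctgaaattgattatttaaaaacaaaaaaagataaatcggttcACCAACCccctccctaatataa
The windows of CYP73A5 and CYP84A4 held none of the searched letters, and that of UGT72E1 held W-box letters at -81 alone. Among these 4 genes, AC element letters were thus in the window of CYP98A3 only. The deposited locus of CYP98A3 (chromosome 2, 17057402 to 17060652) reaches over part of the neighbouring gene AT2G40880. Of these 4 genes, 0 were listed in the RNAi tables.

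The UDP-glycosyltransferases lower in OX included 3 of the 6 genes that stand side by side in the UGT73C cluster of chromosome 2. UGT73C1 (AT2G36750), which glucosylates cytokinins, was 0.242 against 1.17 FPKM, 4.84-fold lower. UGT73C5 (AT2G36800), which glucosylates brassinosteroids and the fungal toxin deoxynivalenol, was 1.63 against 4.83 FPKM, 2.97-fold lower. UGT73C3 (AT2G36780) was 0.259 against 0.538 FPKM, 2.08-fold lower. The other genes of the cluster were on no list. The cluster's copies share sequence, with 12.0% of the 50-base stretches of the UGT73C3 coding sequence and 7.09% of those of UGT73C5 found in another coding sequence, so the split of reads among them is uncertain.

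Of the remaining UDP-glycosyltransferases lower in OX, UGT91C1 (AT5G49690) was 0.848 against 2.83 FPKM, 3.33-fold lower. UGT76E3 (AT3G46700) was 3.18 against 6.97 FPKM, 2.19-fold lower. UGT71B6 (AT3G21780), which glucosylates abscisic acid, was 0.444 against 0.921 FPKM, 2.08-fold lower. Of the UDP-glycosyltransferases by name, 0 were on the higher list of OX, and the median fold of the 8 lower ones was 2.71, beside 2.22 for the 14 lower P450s.

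**Figure D3:**
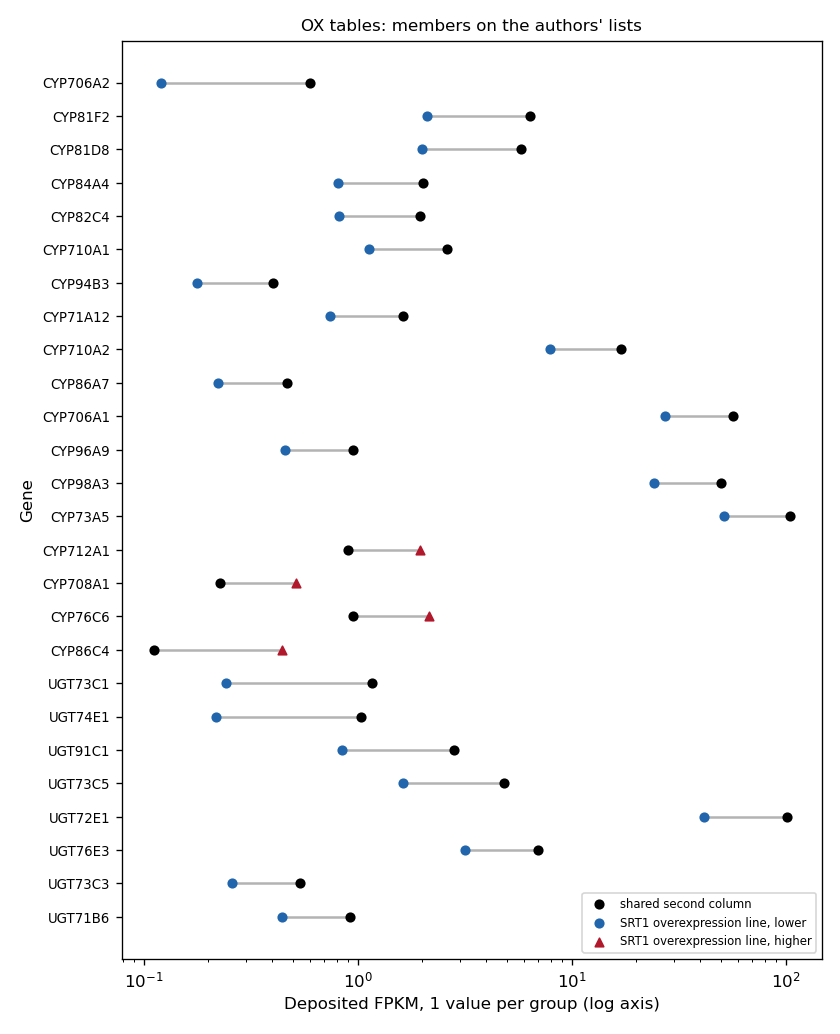
Deposited FPKM (log axis) of the 26 members on the OX lists, with the shared column in black and the OX line in blue where lower or as red triangles where higher, 1 value per group and no error bars. The 4 red triangles are all P450s and all lie under 2.2 FPKM, whereas CYP73A5 and UGT72E1 reach 105 and 102 FPKM in the shared column.

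Both CYP710A genes, neighbours on chromosome 2 that encode sterol C-22 desaturases of stigmasterol and brassicasterol synthesis, were lower in OX. CYP710A2 (AT2G34490) was 7.92 against 17.1 FPKM, 2.15-fold lower, and CYP710A1 (AT2G34500) was 1.12 against 2.62 FPKM, 2.33-fold lower. No 50-base stretch was shared between their coding sequences. CYP706A1 (AT4G22690), near CYP706A2 on chromosome 4, was 27.2 against 56.6 FPKM, 2.08-fold lower. Here 67.1% of the 50-base stretches of CYP706A1 and 71.2% of those of CYP706A2 occur in another coding sequence, in both cases mostly that of the partner, so the low values of CYP706A2 are uncertain.

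CYP81D8 (AT4G37370), a gene known to be induced by foreign compounds, was 2.0 against 5.79 FPKM in OX, 2.90-fold lower. CYP94B3 (AT3G48520), which inactivates jasmonoyl-isoleucine by hydroxylation, was 0.178 against 0.401 FPKM, 2.25-fold lower, with a q-value of 0.023 in the authors' deposited table, the weakest of the members. CYP86A7 (AT1G63710), of the fatty acid omega-hydroxylases, was 0.223 against 0.468 FPKM, 2.1-fold lower, and CYP96A9 (AT4G39480) was 0.46 against 0.947 FPKM, 2.06-fold lower. These last 3 genes stayed under 1 FPKM in both columns.

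The 4 members higher in OX were P450s of subfamilies with no lower member. CYP76C6 (AT1G33720), of a subfamily that oxidises monoterpene alcohols, was 2.16 FPKM in OX against 0.948, 2.28-fold higher. CYP712A1 (AT2G42250) was 1.96 against 0.899 FPKM, 2.18-fold higher. CYP86C4 (AT1G13150) was 0.445 against 0.111 FPKM, 4.0-fold higher, and CYP708A1 (AT1G55940) was 0.515 against 0.228 FPKM, 2.25-fold higher. All 4 levels were low, and 2 of the 4 deposited loci cover more than the named gene. The locus of CYP708A1 (chromosome 1, 20922459 to 20925619) contains 2 other protein-coding genes. That of CYP712A1 (chromosome 2, 17596817 to 17601849) is 5033 bp long, while its RefSeq gene spans 1775 bp, and it touches AT2G42240 and a long non-coding RNA gene. The median deposited span was 3132 bp for these 4 and 1788 bp for the 22 lower members. Among all listed nuclear genes these medians were 3234 and 1327 bp, and the part of gene span in the directions was not tested.

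In the RNAi tables, 10 P450s were lower than the shared column, of which 4 are described above. By the title of that list these genes are higher in RNAi. CYP77B1 (AT1G11600), of a family of fatty acid epoxidases and hydroxylases, was 4.55 FPKM in the first column against 11.6, 2.55-fold lower. CYP78A5 (AT1G13710), also called KLUH, which promotes the growth of leaves and floral organs, was 4.64 against 10.4 FPKM, 2.23-fold lower. Its relative CYP78A8 (AT1G01190) was 0.396 against 1.88 FPKM, 4.73-fold lower. The CYP78A pair was thus listed only in the RNAi tables, both genes in the same direction, and whether it differs from OX was not tested.

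CYP81F3 (AT4G37400), which acts on the same glucosinolate as CYP81F2, was 0.409 against 0.865 FPKM in the RNAi tables, 2.11-fold lower. CYP705A30 (AT3G20940) was 0.0969 against 0.506 FPKM, 5.23-fold lower, and CYP706A7 (AT4G12330) was 0.356 against 0.726 FPKM, 2.04-fold lower. These 3 genes were under 1 FPKM in both columns, and CYP705A30 had a q-value of 0.0085 in the authors' deposited table. The cyclophilin CYP18-3 was 119 against 257 FPKM, 2.17-fold lower, the highest level of all 39 genes. Of the UDP-glycosyltransferases, UGT72B2 (AT1G01390) was 0.532 against 1.44 FPKM, 2.70-fold lower. UGT71C1 (AT2G29750), which glucosylates phenolic compounds in vitro, was 0.581 against 1.3 FPKM, 2.24-fold lower.

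The 4 members higher than the shared column in the RNAi tables lay close to the 2-fold limit. By the title of their list these genes are lower in RNAi. CYP707A4 (AT3G19270), an abscisic acid 8′-hydroxylase that starts the breakdown of that hormone, was 1.12 against 0.535 FPKM, 2.09-fold higher. CYP71B22 (AT3G26200) was 3.77 against 1.88 FPKM and CYP81D1 (AT5G36220) was 4.52 against 2.25 FPKM, 2.00-fold and 2.01-fold higher. UGT86A1 (AT2G36970) was 2.45 against 1.14 FPKM, 2.15-fold higher. Of these 4, 0 were on an OX list.

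**Figure D4:**
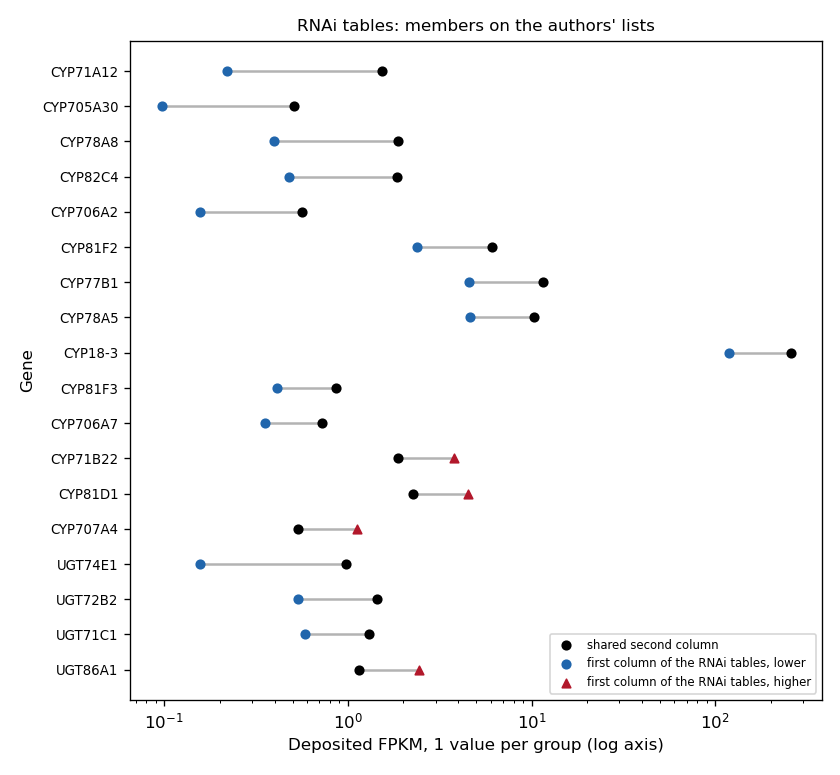
Deposited FPKM (log axis) of the 18 members on the RNAi lists, with the shared column in black and the first column in blue where lower or as red triangles where higher, 1 value per group and no error bars. The longest gap is that of CYP71A12, at 0.221 against 1.54 FPKM, the 4 red triangles lie near the 2-fold limit, and CYP18-3 is a cyclophilin.

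The 38 enzymes fell into 21 P450 and 9 UDP-glycosyltransferase subfamilies, of which 5 and 1 held more than 1 listed gene. Both lines touched 5 P450 subfamilies (CYP71A, CYP81D, CYP81F, CYP82C and CYP706A) and 1 UDP-glycosyltransferase subfamily (UGT74E). In CYP706A, A1 and A2 were lower in OX, and A2 and A7 in the RNAi tables. In CYP81F, F2 was lower in OX, and F2 and F3 in the RNAi tables. CYP81D was the only subfamily with members in both directions, CYP81D8 lower in OX and CYP81D1 higher in the RNAi tables. UGT73C, with 3 genes, and CYP710A, with 2, were listed in OX alone, and CYP78A, with 2, in the RNAi tables alone. Since an unlisted gene may have missed the limit by little, these differences between the lines were not tested.

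The genes of 12 pathway lists that hold members or their partners were looked up in the tables. As background, of 27444 nuclear protein-coding genes 2.6% were listed as lower and 3.8% as higher in OX, and 2.38% as lower and 1.25% as higher in the RNAi tables. The list shares were not tested against these, since the lists were chosen with earlier results known. Many of them also hold members, which are on the authors' lists by selection, so part of such a count was fixed in advance. In camalexin and indolic glucosinolate synthesis, 4 of 23 matched genes were lower and 0 higher in OX, and 4 lower and 0 higher in the RNAi tables. Besides the P450s, which are members, these were the regulator MYB51, at 2.79 against 6.20 FPKM in OX, and GSTF6, a glutathione S-transferase that supplies a camalexin precursor. GSTF6 was 9.12 against 51.1 FPKM in OX and 11.4 against 48.1 FPKM in the RNAi tables, where it was the only listed non-member. Aliphatic glucosinolates had the other direction, with 2 of 13 higher and 0 lower in OX and 3 higher and 0 lower in the RNAi tables. AOP2 was 2.78 against 0.711 FPKM in OX and 1.77 against 0.672 FPKM in the RNAi tables. Whether AOP2 makes an active enzyme in these Columbia plants was not tested. MYB29 was 2.72-fold higher in OX and 2.98-fold higher in the RNAi tables. MYB76 was 2.13-fold higher in the RNAi tables alone. No P450 of that route (CYP79F1, CYP79F2, CYP83A1) was listed.

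Phenylpropanoids and flavonoids had 4 of 26 matched genes lower and 0 higher in OX, namely the 3 members above and PAL1, phenylalanine ammonia-lyase, the entry enzyme, at 15.8 against 44.1 FPKM. In the tables of the RNAi comparison, PAL1 and PAL4 were lower, PAL1 at 14.5 against 41.7 FPKM and PAL4 at 2.61 against 5.44 FPKM. PAL1 was thus lower in both, while the P450s after it were listed in OX alone. Detoxification and redox partner genes had 4 of 16 lower in OX, which were GSTF6, GSTF7, GSTF8 and the efflux carrier gene DTX1, at 2.01 against 8.89 FPKM, and 3 lower in the RNAi tables. The P450 reductase genes ATR1 and ATR2 were on no list.

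The counts of the hormone lists are given with their matched genes, beside the background shares above. Cytokinins had 2 of 21 lower in OX, UGT73C1 and the synthesis gene IPT1, at 0.324 against 0.88 FPKM, and IPT5 lower in the RNAi tables, at 0.687 against 1.57 FPKM. Of 13 abscisic acid turnover genes, UGT71B6 was lower in OX. In the RNAi tables the synthesis gene NCED3 was lower, at 1.09 against 3.04 FPKM, and the breakdown gene CYP707A4 was higher. Of 21 matched jasmonate genes, CYP94B3 was lower and VSP2 higher in OX, and 1 was lower and 3 higher in the RNAi tables. Of 13 matched brassinosteroid genes, UGT73C5 was lower in OX alone. Of 16 gibberellin genes, GA2OX2 was lower in the RNAi tables alone. Of 14 matched genes of auxin and salicylate conjugation, PBS3 was lower in both. Cutin, suberin and wax had 1 of 22 matched genes lower and 1 higher in OX. Root triterpenes and coumarins had 1 of 11 matched genes, CYP82C4, lower in both. Tissue markers were counted in the same way, beside the same background of 2.6% lower in OX and 2.38% lower in the RNAi tables. Of 13 root markers, 6 were lower and 0 higher in OX, from 2.00-fold to 2.89-fold, and 8 lower and 0 higher in the RNAi tables, from 2.1-fold to 5.26-fold. Of 10 matched leaf markers, 2 were lower in OX and 1 in the RNAi tables, and of 9 seed markers 4 were higher in the RNAi tables and 0 listed in OX. Their part in the members' values was not tested.

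Gene structure differed between the families. Of the 11 UDP-glycosyltransferases, 8 had a single coding exon and none had more than 2, with coding sequences of 1344 to 1494 bp. Of the 27 P450s, 9 had a single coding exon, and CYP707A4 had the most, 9, with coding sequences of 1407 to 1674 bp. In 20 P450s and 7 UDP-glycosyltransferases no 50-base stretch of the coding sequence occurred in that of another gene. Beside the CYP706A pair and the UGT73C genes, CYP82C4 shared 10.2% of its stretches, mostly with its neighbour CYP82C3, and CYP705A30 5.58%, mostly with CYP705A32.

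Upstream motifs were searched on both strands in the 250 bases before each of the 39 gene starts and in 27443 windows of nuclear protein-coding genes. W-box letters were in 14 members, or 35.9%, beside 28.4% of all windows, and CYP81D8 held the most with 4. The window of CYP81D8 overlaps the neighbouring gene AT4G37380. Those of CYP18-3, CYP712A1 and UGT73C5 also overlap another gene. AC element letters were in 5 members (CYP710A2, CYP77B1, CYP82C4, CYP98A3 and UGT74E1), or 12.8%, beside 3.79%. The as-1 letters were in 5, or 12.8%, beside 18.6%, the G-box (CACGTG, bound by bZIP and bHLH factors) in 2, or 5.13%, beside 6.49%, and the GCC-box (GCCGCC, bound by ERF factors) in 0, beside 1.87%. The W-box and as-1 letters share the core TGAC, and the base after it keeps them apart. The window of CYP708A1 lies inside its deposited locus and that of CYP71A12 partly so, and both were counted. These matches describe the windows and show no binding.

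The rule on names left out 2 listed genes that RefSeq describes as UDP-glycosyltransferase superfamily proteins. AT5G24750 was 1.92 against 0.88 FPKM in OX, 2.18-fold higher, and AT5G59070 was 0.827 against 1.66 FPKM in the RNAi tables, 2.01-fold lower. With AT5G24750 counted, 8 of 9 family genes in OX would be lower.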

How the data were processed

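RNA sequencing of 9 libraries, 3 per group, was processed by the authors against TAIR10. The submitters' processing notes name Cufflinks (2.2.1), TopHat2 (2.1.1) and Cuffdiff without saying which step each served. The authors deposited 4 lists with 1 FPKM value per group, a log2 ratio, a p-value and a q-value per gene, with Cuffdiff column names per the file headers. A pair of deposited overlap tables was not used here, since they repeat these lists. Depth is unknown. Groups come from the sample titles, and columns from the labels in the tables.

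Members were selected by the gene column in upper case without a leading AT. Folds are ratios of the 2 deposited FPKM values without a pseudocount, computed with pandas 2.3.3, and direction is the first column against the second. The planned output was counts and values with no test, because no value per library exists. The members, the pathway and marker lists and the alternatives were chosen with earlier results of these data known. The rule for named genes was to name every member, and both columns are given for all. Other genes are named where a pathway list holds them. The list name TSA1 was kept from matching a listed gene of the same symbol that encodes another protein. All 39 members were found in RefSeq by identifier. Sequences, exons, neighbours and product names are from RefSeq TAIR10.1, whose coding sequences lay inside the deposited TAIR10 loci for 37 of 39 members and 2179 of 2281 listed nuclear genes. Deposited loci are counted from 1. Shared stretches were exact matches of 50 bases among the longest coding sequences, and the motif search was checked on a made sequence. Of the members, 0 had a locus written with spaces around the hyphen or a deposited log2 ratio off by more than 0.001, while 28 of 3092 entries had such a locus.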

Additional observations from a re-analysis of the deposited data

How the results depend on the processing

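No paired analysis was possible because the tables hold 1 value per group, and for the same reason no library could be left out. A log2 ratio of at least 1.5 left 3 P450s and 4 UDP-glycosyltransferases lower and 1 P450 higher in OX, and 5 CYP genes and 1 UDP-glycosyltransferase lower and 0 of either family higher in the RNAi tables. By construction it raised the median folds, to 4.0 for P450s higher in OX, and to 4.73 for CYP genes and 6.25 for UDP-glycosyltransferases lower in the RNAi tables. A minimum of 5 FPKM in the higher column left 6 P450s and 2 UDP-glycosyltransferases lower in OX, 4 CYP genes and 0 UDP-glycosyltransferases lower in the RNAi tables, and 0 higher in either. Folds of at least 2 from log2(FPKM + 1) left 5 P450s and 3 UDP-glycosyltransferases lower in OX, 6 CYP genes and 0 UDP-glycosyltransferases lower in the RNAi tables, and 0 higher in either. So of the 8 higher entries in all, 1 remained at the first limit and 0 at the other limits. Membership by RefSeq names, which lack many UGT symbols, left 4 UDP-glycosyltransferases lower in OX, and 1 lower and 0 higher in the RNAi tables. Leaving out irregular entries (here a locus that contains other protein-coding genes) or CYP18-3 kept every count within 1.5 times. CYP712A1 and CYP98A3, whose loci only touch or reach over part of such a gene, stayed in. Leaving out loci written with spaces could not alter a count, since 0 members have one. The removal of spaced loci and that of CYP18-3 were chosen after seeing the data. Low FPKM and the missing values per library limit every fold here.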
